A study of Mus musculus with 899 samples.

Results

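Plasma of C3H mice sampled 4 months after whole thorax lung irradiation (WTLI) was compared with plasma of sham irradiated C3H mice of the same month. The samples were those labelled with the strain C3Hf/Sed/Kam and the time point M4, which gave 33 of the 402 plasma samples of C3H mice in the series, beside 497 of C57Bl/6 mice. Of these, 17 came from irradiated mice (9 males and 8 females) and 16 from sham irradiated mice (8 males and 8 females). All were gnotobiotic young adults when they entered the study. The irradiated mice had received a single X-ray dose to the thorax with the rest of the body shielded by lead, so that lung and heart lay in the field together, and the sham mice had received no dose. Mice of both groups had given blood before irradiation (PT), at day 2 or day 5 and then monthly. The letter A in a title marks the mice bled at day 2 and the letter B those bled at day 5 (10 A and 7 B among the irradiated mice, 8 of each among the sham mice). The C3H dose was chosen by the study to be lethal to most mice within months, so the mice sampled at month 4 are those that were left: 32 irradiated mice of this cohort were sampled before irradiation, 27 at month 3 and 17 at month 4, while all 16 sham mice were sampled throughout.

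MicroRNAs (miRNAs) are short RNAs that bind to messenger RNAs, mostly through the seed, bases 2 to 8 from the 5′ end, and lower their translation and stability. Blood cells, endothelium, liver, muscle and epithelia release them into plasma, where they are carried in vesicles or bound to proteins. The miR-34 family is induced by the tumour suppressor p53 after DNA damage, and miR-34b and miR-34c are also abundant in ciliated airway epithelium and testis. In vertebrates miR-202 is known as a miRNA of the gonads. Plasma gives no count of the cells behind a miRNA, so that fewer releasing cells and less RNA released by each cell cannot be told apart.

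The mature sequences below belong to the miRNAs on which the results turn, with the seed in capitals. They were taken from RefSeq (GRCm38.p6, the assembly of mm10), whose table matched 415 of the 483 tested miRNAs. The first set is the miR-34 family, in which the 5p arms of miR-34a, miR-34b and miR-449a share 1 seed and the 3p arms of miR-34b and miR-34c share another. The tested arm miR-34c-5p is missing from the set because that table held no sequence for it.
miR-34a-5p: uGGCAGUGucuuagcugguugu
miR-34b-5p: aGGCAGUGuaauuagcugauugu
miR-449a-5p: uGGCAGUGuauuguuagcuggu
miR-34b-3p: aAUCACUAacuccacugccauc
miR-34c-3p: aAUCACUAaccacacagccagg
From base 1 at the 5′ end of miR-34c-3p, miR-34b-3p differs at 5 positions (C11U, A12C, A16U, G21U and G22C), all of them outside the seed. Both lie on the minus strand of chromosome 9, miR-34b-3p at chr9:51103574-51103595 and miR-34c-3p at chr9:51103044-51103065, opposite an intron of Btg4. miR-34a-5p lies at chr4:150068473-150068494 and miR-449a-5p at chr13:113037549-113037570, the latter in an intron of Cdc20b. The next pair are the arms of miR-202, shown because 1 of them was among the miRNAs called.
miR-202-5p: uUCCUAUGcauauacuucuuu
miR-202-3p: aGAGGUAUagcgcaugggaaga
They lie on the minus strand at chr7:139957732-139957752 and chr7:139957695-139957716, in an exon of the long non-coding RNA gene Gm2044. No other tested miRNA of the table had either of their seeds.

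Each library gave a count of reads for each mature miRNA. Totals ran from 785961 to 11192942 reads in irradiated mice (median 2882714) and from 1065563 to 11814515 in sham mice (median 2842438). The difference in mean log10 total had p = 0.599 (two-sided permutation test, 100000 resamples). The number of miRNAs with a read was 476 ± 58.3 (SD, n = 17) after irradiation and 497 ± 50.9 (SD, n = 16) after sham treatment (permutation p = 0.285). Of 994 miRNAs with a read in any of the 33 libraries, 254 had a read in all of them. The log2 ratio of miR-451a, a red cell miRNA, to miR-23a, a usual measure of hemolysis, was 0.22 ± 0.79 (SD, n = 17) after irradiation and 0.29 ± 0.70 (SD, n = 16) after sham treatment (permutation p = 0.791). miR-16-5p, a blood cell miRNA, took the largest share of every library. Its share was 32.2% to 53.4% in 30 libraries, and 3 libraries stood apart at 19.3% (sham male 2003), 16.7% (sham female 2028) and 28.3% (sham female 2038). All 3 were sham libraries, so results that rest on them are given with and without them, a choice made after seeing the data.

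Only 2 of the tested miRNAs passed the threshold at month 4. miR-34c-3p was higher in plasma of irradiated mice and miR-202-5p, the gonadal miRNA, was lower. Of 483 miRNAs tested with edgeR (quasi-likelihood F-test on the counts, p adjusted after Benjamini and Hochberg), 2 were called at an adjusted p under 0.05, which is 0.414% of those tested. At an unadjusted p under 0.05 there were 41 (8.49%), of which 13 were higher (2.69%) and 28 lower (5.8%) in irradiated mice. The median log2 fold change (irradiated minus sham) over all tested miRNAs was -0.06, with 199 positive and 281 negative values. Without the 3 sham libraries that stood apart, 24 miRNAs had an unadjusted p under 0.05, 12 in each direction, none was called by edgeR, and the median was 0.01. The plot of fold change against p shows the 2 called miRNAs and the uncalled ones with the smallest p.

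**Figure D1:**
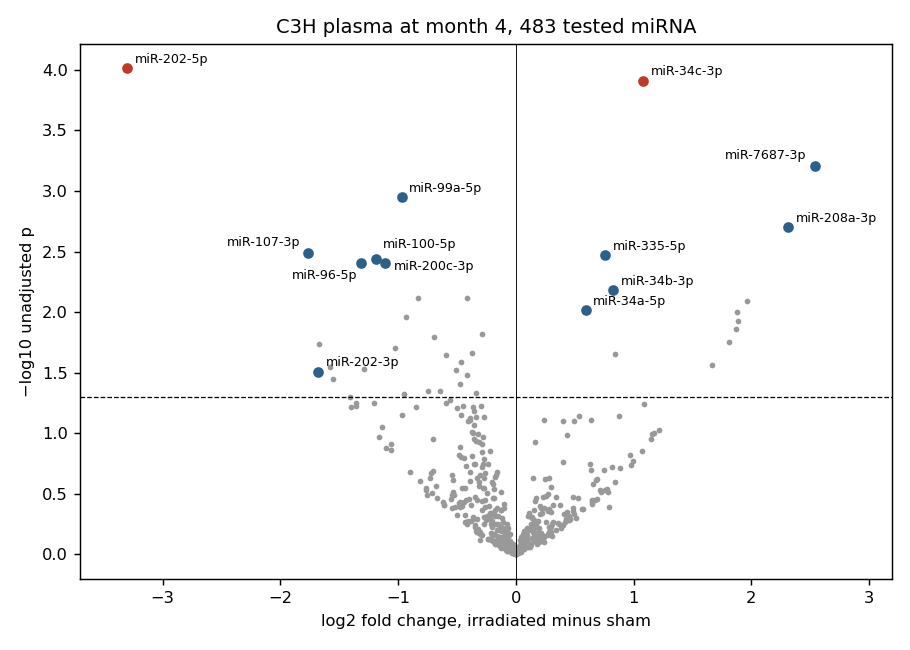
The log2 fold change of irradiated minus sham C3H plasma at month 4 (x axis) against −log10 of the unadjusted p from edgeR (y axis), 1 point for each of 483 tested miRNAs. The 2 called miRNAs are red, other named ones blue, and the dashed line marks an unadjusted p of 0.05. miR-202-5p (-3.30) and miR-34c-3p (1.08) lie highest, on opposite sides.

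miR-34c-3p, the 3p arm of a p53 target that is abundant in ciliated cells, was 2.12-fold higher in irradiated mice. Its level in log2 CPM (the log2 of reads scaled to 1 common library size, with 2 counts added, so that 0 reads stand at 0.23) ran from 2.70 over a median of 3.51 to 4.69 in the 16 sham mice and from 2.96 over 4.56 to 5.27 in the 17 irradiated mice. The groups overlapped: 7 of 17 irradiated mice lay above the highest sham mouse and 16 of 17 above the sham median. The means were 4.62 ± 0.57 (SD, n = 17) and 3.61 ± 0.51 (SD, n = 16), and the log2 fold change was 1.08 (standard error, SE, 0.28, 95% interval 0.53 to 1.63, adjusted p = 0.0298 by edgeR). With each of the 33 mice left out in turn, the value stayed between 1.03 and 1.19 and the adjusted p between 0.00926 and 0.092. It passed the threshold in 22 of the 33 fits and missed it without sham mice 2002, 2003, 2014, 2027, 2038, 2039 and 2040 and without irradiated mice 2006, 2008, 2010 and 2023. Without the 3 sham libraries that stood apart, the log2 fold change was 1.03 (adjusted p = 0.150 by edgeR), and in limma-voom with every mouse set against its own earlier sample (before irradiation) it was 1.11 (adjusted p = 0.515).

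The means were higher in both sexes. Among females, sham mice held 3.06 to 3.65 log2 CPM and 7 of 8 irradiated mice lay above that range, between 4.04 and 4.61. The remaining irradiated female, mouse 2046, held 2.96 log2 CPM, below every sham female, and had the shallowest of the 33 libraries with 785961 reads, 8 of them from miR-34c-3p. Among males, sham mice ran from 2.70 to 4.69 log2 CPM and irradiated mice from 4.50 to 5.27, with 7 of 9 above the highest sham male. The log2 fold change was 0.94 (SE 0.38, adjusted p = 0.382) in females and 1.15 (SE 0.37, adjusted p = 0.258) in males by edgeR, so neither sex passed the threshold alone. The female minus male difference was -0.21 (SE 0.53).

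In C3H mice miR-34c-3p had risen at each earlier time after irradiation. The groups up to month 1 hold a further cohort of C3H mice that was not bled later. Before irradiation the groups differed by -0.04 log2 units, and the log2 fold change was 1.92 at day 2 (adjusted p = 1.25e-10), 1.51 at day 5 (adjusted p = 1.39e-06), 0.64 at month 1 (adjusted p = 0.0177), 1.24 at month 2 (adjusted p = 0.000759) and 1.09 at month 3 (adjusted p = 0.00441), all by edgeR. The month 4 value minus that of month 3 was -0.01 (SE 0.45) and minus that of month 1 0.44 (SE 0.33), neither past the threshold. In C57Bl/6 mice at month 4 (29 irradiated and 16 sham) its log2 fold change was 0.94 (SE 0.26, adjusted p = 0.0108 by edgeR), and the C3H minus C57Bl/6 difference was 0.14 (adjusted p = 0.934).

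Most other members of the family had positive but smaller values that did not pass. Of 11 listed arms of miR-34 and miR-449, 6 were tested, and the other 5 (miR-34a-3p, miR-449a-3p, miR-449b and both arms of miR-449c) had too few reads for the filter. Of the 6, 5 had a positive log2 fold change, 1 was called and 3 had an unadjusted p under 0.05. Over all 483 tested miRNAs 199 values were positive, 0.414% were called and 8.49% had an unadjusted p under 0.05. The median of the 6 was 0.52 against -0.06 over all tested miRNAs. Leaving out the 3 sham libraries that stood apart gave 0.54.

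miR-34a-5p, the arm of the family with the most reads in these libraries and the classical p53 target, ran from 6.91 over 7.65 to 8.44 log2 CPM in sham mice and from 7.17 over 8.40 to 9.18 in irradiated mice. The irradiated mice lay above the sham median in 16 of 17 cases and above the highest sham mouse in 7. The means were 8.35 ± 0.47 (SD, n = 17) and 7.75 ± 0.50 (SD, n = 16), a log2 fold change of 0.59 (SE 0.23, adjusted p = 0.302 by edgeR) that did not pass. With sex and the bleed letter as covariates in a fit of the 33 samples alone it was 0.67 (adjusted p = 0.0309 by edgeR) and did pass. Its log2 fold change in C3H mice had been 0.71 at day 2, 1.80 at day 5, 0.28 at month 1, 0.74 at month 2 and 0.22 at month 3. Its highest value was at day 5, that of miR-34c-3p at day 2, and the difference between these times was not tested.

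miR-34b-3p shares the seed of miR-34c-3p. Its level was 3.96 ± 0.59 log2 CPM (SD, n = 17) after irradiation and 3.22 ± 0.56 (SD, n = 16) after sham treatment, with 7 of 17 irradiated mice above the highest sham mouse. Its log2 fold change was 0.83 (SE 0.30, adjusted p = 0.282 by edgeR). miR-34c-5p, the other arm of the miR-34c hairpin, was 5.54 ± 0.42 log2 CPM (SD, n = 17) and 5.09 ± 0.51 (SD, n = 16), a log2 fold change of 0.44 (adjusted p = 0.653 by edgeR), again with 7 of 17 irradiated mice above every sham mouse. The pair with the lowest counts did not separate: miR-34b-5p had 0.30 (adjusted p = 0.971) and miR-449a-5p, which ciliated cells hold together with miR-34b and miR-34c, had -0.44 (adjusted p = 0.962 by edgeR). Summed over the 6 arms, the family held 221 to 684 CPM (median 432) in irradiated and 169 to 406 CPM (median 281) in sham mice. The plot of the family by mouse shows both the higher middle of the irradiated groups and their overlap with sham mice.

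**Figure D2:**
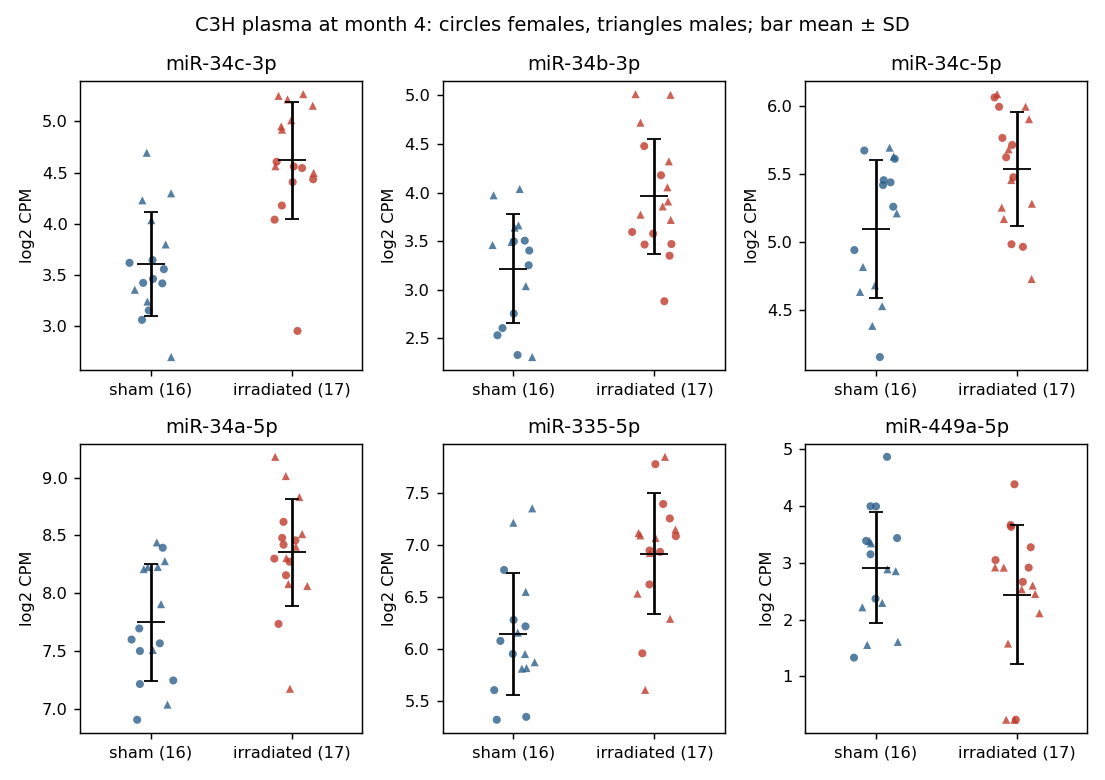
Level in log2 CPM (y axis) of 5 arms of the miR-34 and miR-449 family and of miR-335-5p in 16 sham and 17 irradiated C3H mice at month 4 (x axis), with circles for females, triangles for males and bars for the mean ± SD. For miR-34c-3p, 7 of 17 irradiated mice lie above the highest sham mouse; for miR-449a-5p the ranges overlap.

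miR-202-5p was lower in irradiated mice, and the difference lay in the females. Over both sexes it had 52 reads in 17 irradiated mice, with none in 12 of them, and 407 reads in 16 sham mice, with none in 2. The fitted log2 fold change was -3.30 (SE 0.84, 95% interval -4.95 to -1.65, adjusted p = 0.0298 by edgeR), a level 9.86-fold lower. Leaving out each mouse in turn gave -3.64 to -2.75 with adjusted p between 0.0123 and 0.186, and the call was lost without irradiated mice 2006, 2008, 2010 and 2044 and without sham mice 2027, 2038 and 2040. It was also lost with limma-voom (-2.74, adjusted p = 0.261) and with DESeq2 on C3H months 3 and 4 only (-3.33, adjusted p = 0.155). The same held with the mouse as a random block in limma-voom (-2.79, adjusted p = 0.257) and with every mouse set against its own earlier sample (-2.65, adjusted p = 0.515). By edgeR it was lost with C3H samples only (-3.235, adjusted p = 0.0527) and without the 3 sham libraries that stood apart (-2.86, adjusted p = 0.150). Sex and the bleed letter as covariates in a fit of the 33 samples alone gave -2.98 (adjusted p = 0.196 by edgeR). It was kept by edgeR with DESeq2's size factors, with a mean of at least 10 CPM, in the 33 samples alone and with no filter. The mean of both sexes' effects, chosen after seeing the data, was -3.97 (adjusted p = 1.67e-07 by edgeR).

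In females the groups did not overlap. No read of miR-202-5p was found in any of the 8 irradiated females, while all 8 sham females had reads, with 3, 9, 20, 21, 22, 73, 82 and 101 in rising order. The sham females held 14.0 CPM over the group. A count of 0 over the irradiated group allows up to 3 reads, or 0.12 CPM. The pooled sham level was 117-fold that limit. This ratio covers counting error of the irradiated reads only and not the spread between mice. The fitted log2 fold change, -7.64 (SE 1.02, adjusted p = 1.02e-10 by edgeR), depends on the counts added and is no bound. The 3p arm had 1 read in 1 irradiated female and 44 reads in the sham females, with reads in all 8 of them, which is 1.87 CPM and a ratio of 46.6 (95% counting interval 7.94 to 1882). Its log2 fold change was -4.24 (SE 0.99, adjusted p = 0.00458 by edgeR). These were the 2 miRNAs called in females (0.414% of 483), and both were called also with limma-voom, with DESeq2's size factors, with no filter on low counts and without the 3 sham libraries that stood apart.

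Males had little miR-202 in either group. Irradiated males had 52 reads of the 5p arm, with 0, 0, 0, 0, 4, 6, 8, 12 and 22 in single mice, and sham males 76 reads, with 0, 0, 1, 2, 4, 6, 15 and 48. That is 1.42 and 2.17 CPM, both far under the 14.0 CPM of sham females, and the ranges overlapped. The log2 fold change in males was -0.31 (SE 0.70, adjusted p = 1 by edgeR). The 3p arm had 26 reads in irradiated and 6 in sham males, 0.711 and 0.172 CPM, with a positive log2 fold change of 0.88 (SE 0.85, adjusted p = 1 by edgeR). The female minus male difference was tested directly and was -7.33 for miR-202-5p (SE 1.26, adjusted p = 4.06e-06) and -5.12 for miR-202-3p (adjusted p = 0.0247) by edgeR. They were the 2 miRNAs of 483 (0.414%) whose effect differed by sex. The call of miR-202-3p was lost without the 3 sham libraries (-4.64, adjusted p = 0.153) and without the deepest library of each group (-4.36, adjusted p = 0.397), while miR-202-5p kept it in both. At an unadjusted p under 0.05 the sexes differed for 19 miRNAs.

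Mice were bled repeatedly, so the females can be followed from before irradiation, with females of the further cohort in the groups up to month 1. Before irradiation miR-202-5p stood at 23.3 CPM in the females to be irradiated and 22.8 CPM in the sham females, with reads in 32 of 32 and 16 of 16. At day 2 it was higher in irradiated females, 173 against 39.8 CPM (log2 fold change 2.03, adjusted p = 0.0264), and at day 5 the values were 19.4 and 18.8 CPM. From month 1 it was lower: 8.60 against 26.1 CPM at month 1 (log2 fold change -1.51, adjusted p = 0.0112 by edgeR), with reads still in 28 of 29 irradiated females. At month 2 there were 4 reads in 15 irradiated females, 0.165 against 27.4 CPM, and at month 3 11 reads in 14, 0.452 against 43.5 CPM (adjusted p = 2.34e-16 and 7.33e-16 by edgeR). At month 4 none was found. The differences between these time points were tested over both sexes only, where month 4 minus month 1 gave -1.90 (SE 0.94) and month 4 minus month 3 gave 1.75 (SE 1.19), neither past the threshold. In C57Bl/6 females at month 4 reads were found in 3 of 14 irradiated and 7 of 8 sham mice, 0.388 against 12.9 CPM (log2 fold change -4.87, SE 0.70, adjusted p = 3.65e-09 by edgeR), and over both sexes the strains differed by 0.16 (adjusted p = 0.964).

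**Figure D3:**
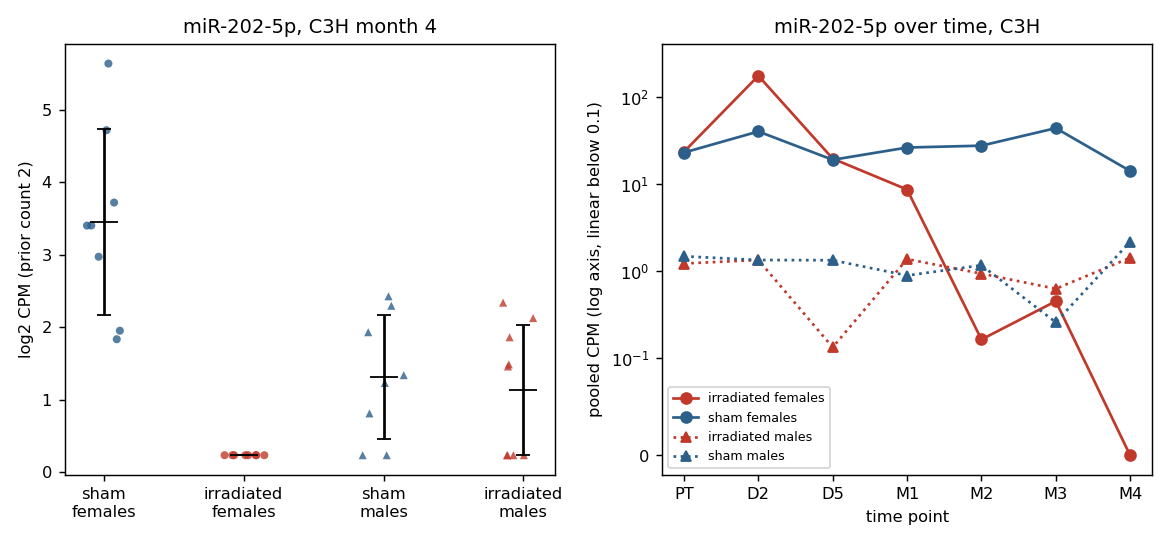
Left, level of miR-202-5p in log2 CPM (y axis) in each C3H mouse at month 4 by treatment and sex (x axis); right, its pooled CPM (y axis, log scale above 0.1 and linear below) in irradiated and sham mice of each sex from before irradiation to month 4 (x axis). The 8 irradiated females all lie at 0.23 log2 CPM, the value of 0 reads, and the pooled level of the irradiated females sampled at each time is 173 CPM at day 2 (16 mice) and 0 at month 4 (8 mice).

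The gonadal list held few other measurable miRNAs. Of its 13 arms, 4 were tested, 1 was called and 2 had an unadjusted p under 0.05. Over all 483 tested miRNAs these shares were 0.414% and 8.49%. The other 9 arms of the list, which are arms of X-linked testis clusters, had too few reads. Among the tested ones, miR-465b-5p had no read in the 33 libraries and miR-465c-5p had a log2 fold change of -0.17. The median of the 4 was -0.92, midway between miR-202-3p (-1.68) and miR-465c-5p.

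Beyond the called ones, the miRNAs with the smallest p and a higher level in irradiated mice were miR-7687-3p, miR-208a-3p, miR-335-5p, miR-34b-3p and miR-6946-3p. miR-208a-3p and miR-335-5p lie in introns of their host genes, Myh6, the heart myosin, at chr14:54949072-54949093, and Mest, an imprinted gene of mesoderm, at chr6:30741314-30741336, and are shown for that reason.
miR-208a-3p: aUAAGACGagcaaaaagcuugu
miR-335-5p: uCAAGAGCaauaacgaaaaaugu
miR-335-5p ran from 5.32 over 6.01 to 7.35 log2 CPM in sham and from 5.61 over 7.07 to 7.85 in irradiated mice. Its log2 fold change was 0.76 (SE 0.26, adjusted p = 0.191 by edgeR) and did not pass, except with sex and the bleed letter as covariates (0.84, adjusted p = 0.0102). In females 6 of 8 irradiated mice lay above the highest sham female, in males 1 of 9. In C57Bl/6 mice at month 4 it was called, with 1.15 (adjusted p = 0.000282 by edgeR).

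miR-208a-3p, a heart muscle miRNA, was near the limit of detection. It had reads in 7 of 17 irradiated mice, with 1, 1, 1, 4, 5, 8 and 32 reads, and in 2 of 16 sham mice, with 2 reads each. The log2 fold change was 2.31 (SE 0.75, adjusted p = 0.191 by edgeR) and did not pass. Among males, 5 of 9 irradiated and 0 of 8 sham mice had a read (fitted log2 fold change 3.61, adjusted p = 0.139). In C57Bl/6 mice at month 4, 9 of 29 irradiated and 0 of 16 sham mice had one (adjusted p = 0.00032 by edgeR). The other muscle miRNAs had values from -0.17 (miR-208b-3p, which shares the seed of miR-208a-3p) to 0.20. miR-1a-3p, miR-133a-3p and miR-206-3p, which skeletal muscle holds in large amounts, had log2 fold changes of 0.03, 0.08 and 0.08, and miR-499-5p, another miRNA of a myosin intron, had 0.20. Of the 7 tested muscle miRNAs 6 were positive and none was called, and their median was 0.08. Over all 483 tested miRNAs 199 values were positive. With the 3 sham libraries that stood apart left out, 4 of the 7 were positive, with a median of 0.01, and miR-208a-3p had 2.74 (adjusted p = 0.150 by edgeR). In that fit the SEs of miR-1a-3p, miR-133a-3p and miR-206-3p were 0.54, 0.51 and 0.54, so their small values do not exclude a change of that size.

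miR-7687-3p and miR-6946-3p rested on even fewer reads. The former had 2, 6, 8 and 15 reads in 4 irradiated mice and 1 read in each of 2 sham mice (log2 fold change 2.54, adjusted p = 0.1002 by edgeR). The latter had 33 reads in 6 irradiated mice and 3 reads in 3 sham mice (1.96, adjusted p = 0.282).

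The miRNAs with the smallest p and a lower level in irradiated mice were, after miR-202-5p, miR-99a-5p, miR-107-3p, miR-100-5p, miR-200c-3p and miR-96-5p, and their values rested on the 3 sham libraries that stood apart. miR-99a and miR-100 are near copies that hold down mTOR, miR-107 and miR-103 are near copies with a role in insulin signalling, and miR-200c and miR-96 are epithelial. The pairs are shown because they differ by so little that reads could have been shared between them, which makes their single values uncertain.
miR-99a-5p: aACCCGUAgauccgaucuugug
miR-100-5p: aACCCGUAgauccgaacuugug
miR-103-3p: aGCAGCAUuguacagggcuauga
miR-107-3p: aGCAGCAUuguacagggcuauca
miR-200c-3p: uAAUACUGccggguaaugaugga
miR-96-5p: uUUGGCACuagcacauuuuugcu
Counted from the 5′ end, miR-99a-5p and miR-100-5p differ by U16A and miR-103-3p and miR-107-3p by G22C. The first pair comes from chr16:77598940-77598961, in an intron of Mir99ahg, and chr9:41531437-41531458, and miR-107-3p from an intron of Pank1 at chr19:34820700-34820722.

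miR-99a-5p ran from 4.09 over 5.41 to 8.81 log2 CPM in sham mice and from 0.23 over 5.17 to 6.27 in irradiated mice, with a log2 fold change of -0.97 (SE 0.30, adjusted p = 0.135 by edgeR). miR-107-3p had -1.76 and miR-100-5p -1.19, miR-200c-3p -1.11 and miR-96-5p -1.32, each with an adjusted p of 0.191 by edgeR. In all 5 the 3 sham libraries that stood apart lay above the other 30 libraries. Without them the log2 fold changes were -0.01 for miR-99a-5p, 0.07 for miR-107-3p, -0.20 for miR-100-5p, 0.17 for miR-200c-3p and 0.16 for miR-96-5p, so that 3 of the 5 turned sign. What sets these libraries apart was not tested.

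The epithelial list had the same dependence on these libraries. It holds the miR-200 and miR-183 clusters, miR-203 and miR-205, which are enriched in epithelia and skin. All 10 members were tested, all 10 had a negative log2 fold change (median -0.38, from -1.32 to -0.13), 3 had an unadjusted p under 0.05 and none was called by edgeR. Over all 483 tested miRNAs 281 values were negative and 8.49% had an unadjusted p under 0.05. Without the 3 sham libraries the median was 0.10, 2 of 10 were negative and none had an unadjusted p under 0.05. The summed level of the 10 was 89470, 113900 and 132600 CPM in those libraries and 19120 to 84400 CPM in the other 30 (median 41060). The 10 let-7 arms (median log2 fold change -0.09 with 9 negative and none called, or -0.03 with 5 negative without those libraries) were also high in them, with 121100 to 183400 CPM in the 3 libraries and 35670 to 90260 CPM in the other 30, whereas the leukocyte list was low in them, 9973 to 15670 against 15710 to 45440 CPM. let-7g-5p, with an unadjusted p under 0.05 in all 33 libraries (-0.37, adjusted p = 0.403 by edgeR), stood at 0.00 without them, and miR-182-5p went from -0.69 to 0.16.

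**Figure D4:**
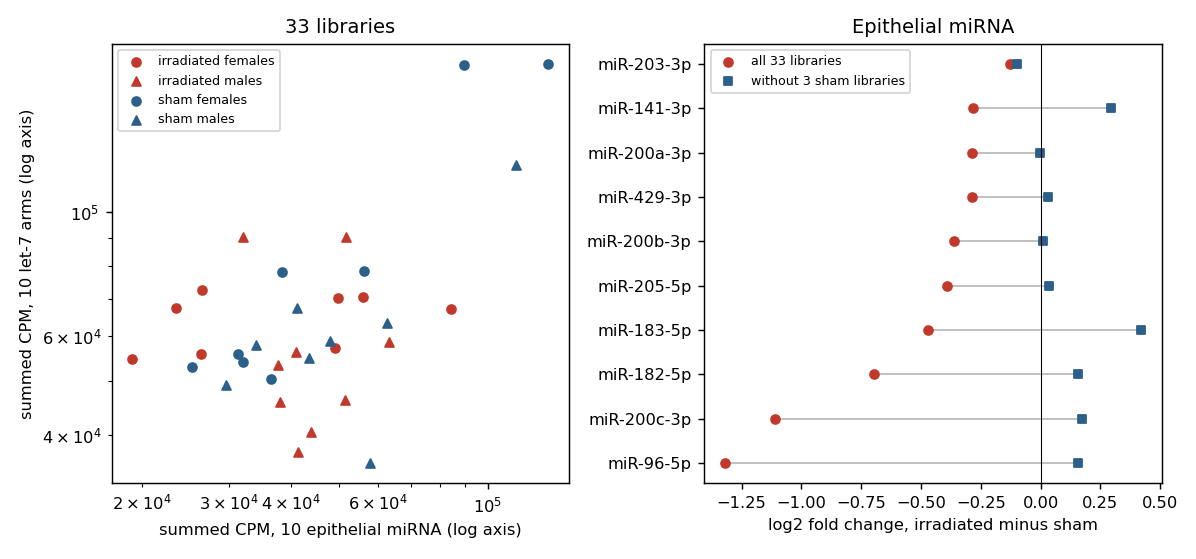
Left, summed level of 10 epithelial miRNAs (x axis, CPM, log scale) against that of 10 let-7 arms (y axis, CPM, log scale) in the 33 libraries, by treatment and sex; right, log2 fold change (x axis) of each epithelial miRNA with all 33 libraries and without the 3 sham libraries. The 3 sham libraries lie at the upper right, and without them 8 of 10 epithelial values are no longer negative.

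In the lists of other sources of plasma miRNA no member was called at month 4. These lists were chosen with results of the same samples known. The 11 tested leukocyte miRNAs had a median log2 fold change of -0.15 with 7 negative, or -0.28 with 8 negative without the 3 sham libraries. miR-150-5p, which lymphocytes hold in large amounts, ran from 11.3 over 13.3 to 14.5 log2 CPM in sham and from 11.9 over 12.9 to 13.6 in irradiated mice. Of 17 irradiated mice 14 lay below the sham median (log2 fold change -0.34, SE 0.17, adjusted p = 0.558 by edgeR). Without the 3 sham libraries, which were among the low ones for leukocyte miRNAs, it was -0.56 (adjusted p = 0.175). In C3H mice it had fallen by 1.70 at day 2, 1.30 at day 5 and 0.62 at month 1 on the log2 scale (adjusted p = 4.56e-27, 1.48e-15 and 8.16e-07 by edgeR).

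The red cell, liver, pancreas, endothelial and platelet lists had medians from 0.02 to 0.30 with all 33 libraries and from -0.11 to 0.02 without the 3 sham libraries that stood apart. The 7 erythroid miRNAs (miR-451a, miR-144 and miR-486, of red cells) had a median of 0.02 and values from -0.01 to 0.20. Of these, miR-486a-5p and miR-486b-5p had nearly the same counts in every library and cannot be read as separate. The 5 liver miRNAs had a median of 0.30, and 1 of them, miR-122-5p of hepatocytes, had an unadjusted p under 0.05. When those were left out the liver median was 0.02 and miR-122-5p had 0.72 (unadjusted p = 0.0688, adjusted p = 1 by edgeR), while the median of the erythroid miRNAs was -0.11 with 6 of 7 negative. The 4 pancreas miRNAs had a median of 0.07, the 2 arms of endothelial miR-126a 0.02 and the 5 platelet miRNAs 0.04. These medians were -0.03, -0.04 and 0.01 without the 3 sham libraries.

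Of the 12 stromal and fibrosis miRNAs, chosen because irradiated lung can scar late, 10 were negative with a median of -0.11, and none had an unadjusted p under 0.05. Of the 12, 6 were negative without the 3 sham libraries that stood apart, and the median was 0.02. miR-21a-5p, the best known fibrosis miRNA, was 15.4 ± 0.35 log2 CPM (SD, n = 17) after irradiation and 15.5 ± 0.42 (SD, n = 16) after sham treatment (log2 fold change -0.10, SE 0.12). miR-29a-3p, which holds down collagens, had -0.16 (SE 0.13) with all libraries and 0.00 (SE 0.14) without those 3. miR-10b-5p had the largest value of the list, -0.45 (SE 0.24, adjusted p = 0.558 by edgeR). Of 13 miRNAs listed from those that the paper names as changed in lung or heart tissue of irradiated mice, 1 (miR-34c-3p) was called. At an unadjusted p under 0.05, 4 had a higher level and 1 a lower one. Over all tested miRNAs 0.414% were called, 2.69% were higher and 5.8% lower. The median was 0.13, and without the 3 sham libraries 0.11. That list is not independent of the study. The paper names most of the 13, including every member with an unadjusted p under 0.05, as changed in plasma of this series too. The shares over all tested miRNAs therefore cannot tell whether the list stands out. The 15 arms of the miR-17 cluster and its paralogs, which drive cell growth, had a median of -0.02, or -0.08 without the 3 sham libraries.

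None of the 8 most abundant miRNAs was called. miR-16-5p held 384500 CPM on average over the 33 libraries, with a log2 fold change of -0.02 (SE 0.18). It was followed by miR-21a-5p, miR-25-3p, miR-148a-3p, both 5p arms of miR-486, miR-93-5p and let-7c-5p. Their log2 fold changes ran from -0.50 (let-7c-5p, 0.15 without the 3 sham libraries) to -0.01.

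In males alone no miRNA passed the threshold (0% of 483 by edgeR, smallest adjusted p 0.139), with 22 at an unadjusted p under 0.05. With limma-voom 2 were called, miR-34c-3p and miR-5107-3p. In females 39 had an unadjusted p under 0.05.

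The effects at month 4 were set against those at month 1, the last early time, and month 3, the time before. No miRNA differed from month 1 by edgeR (0% of 483, 20 at an unadjusted p under 0.05). The closest was miR-18b-5p, of the miR-106a cluster, which had 1.46 at month 1 (adjusted p = 1.23e-13) and 0.25 at month 4, a difference of -1.20 (SE 0.31, adjusted p = 0.0526 by edgeR). With the mouse as a block in limma-voom 3 members of that cluster differed, miR-18b-5p, miR-20b-5p and miR-106a-5p. By edgeR, without the 3 sham libraries that stood apart, 3 also differed, miR-18b-5p, miR-20b-5p and miR-6961-3p. From month 3 no miRNA differed (0% of 483 by edgeR, 13 at an unadjusted p under 0.05, none called by limma-voom).

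Both strains were sampled at month 4, and 6 miRNAs (1.24% of 483) had an effect in C3H that differed from that in C57Bl/6 mice by edgeR, with 50 at an unadjusted p under 0.05. Of the 6, 4 belong to the liver or pancreas lists and had larger log2 fold changes in C57Bl/6 mice. These lists hold 5 and 4 tested miRNAs, and their other members were not called. The pancreas pair is shown because its members are neighbours on chromosome 11.
miR-216a-5p: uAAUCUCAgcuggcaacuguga
miR-216b-5p: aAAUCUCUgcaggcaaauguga
Counted from the 5′ end they differ by U1A, A8U, U11A and C17A, the second within the seed, and they lie at chr11:28757018-28757039 and chr11:28746204-28746225.

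miR-122-5p, the main miRNA of hepatocytes, ran from 10.6 over 11.7 to 13.0 log2 CPM in C3H sham and from 10.5 over 12.0 to 14.1 in C3H irradiated mice. The log2 fold change was 0.84 (adjusted p = 0.403) in C3H and 2.97 (adjusted p = 5.39e-12) in C57Bl/6 mice by edgeR, a difference of -2.13 (SE 0.50, adjusted p = 0.00561). miR-192-5p, of liver, gut and kidney, was 12.4 ± 0.50 log2 CPM (SD, n = 17) in irradiated and 12.2 ± 0.62 (SD, n = 16) in sham C3H mice. In C57Bl/6 mice it was 12.9 ± 0.84 (SD, n = 29) and 12.0 ± 0.45 (SD, n = 16), and the difference of the effects was -1.03 (SE 0.28, adjusted p = 0.0152 by edgeR).

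miR-216a-5p, of acinar pancreas, was 4.73 ± 0.74 log2 CPM (SD, n = 17) in irradiated and 4.45 ± 0.64 (SD, n = 16) in sham C3H mice. In C57Bl/6 mice the levels were 4.50 ± 1.45 (SD, n = 29) and 2.50 ± 1.20 (SD, n = 16); the sham mice of C57Bl/6 held the lowest mean of the 4 groups. The difference of the effects was -1.98 (SE 0.52, adjusted p = 0.0147 by edgeR). miR-216b-5p had 20 reads in irradiated and 133 in sham C3H mice, and 35 reads in irradiated and 0 in sham C57Bl/6 mice (difference -5.09, adjusted p = 0.00168 by edgeR). The other 2 also rested on few reads. miR-350-5p had 9 and 57 reads in irradiated and sham C3H mice and 47 and 1 in C57Bl/6 mice (difference -4.64, adjusted p = 0.00776). miR-7687-3p had 31 and 2 reads in C3H and 15 and 18 in C57Bl/6 mice (difference 4.003, adjusted p = 0.00776). With limma-voom only miR-122-5p was called.

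**Figure D5:**
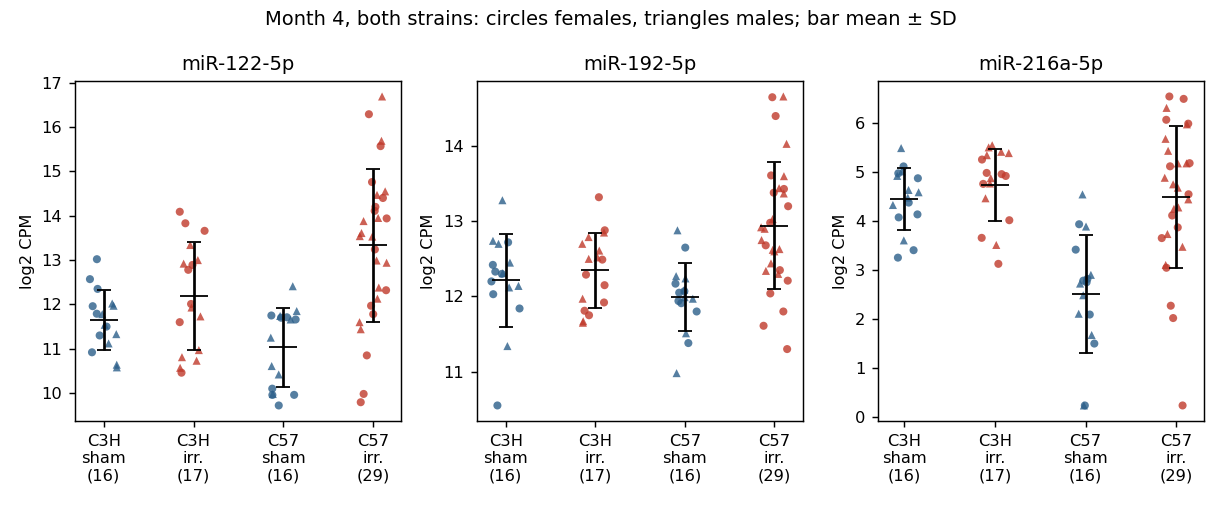
Level in log2 CPM (y axis) of miR-122-5p, miR-192-5p and miR-216a-5p in sham and irradiated mice of both strains at month 4 (x axis; 16, 17, 16 and 29 mice), with the mean ± SD. The irradiated C57Bl/6 mice lie above their sham mice in the mean of all 3, while the C3H means differ by less than 1 SD of the irradiated mice.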

How the data were processed

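Plasma of 33 C3H mice at month 4 (17 irradiated, 16 sham) was analysed. Per the labels and the study's methods, the authors drew miRNA from 25 µL of plasma without excess hemolysis, made libraries with the QIAseq kit, sequenced them on a NextSeq 550, aligned reads with BaseSpace Small RNA to mm10 and rejected runs with few miRNA reads. They deposited raw read counts per mature miRNA, 1915 miRNAs by sample, with no normalization. The miRBase release and any use of molecular identifiers are not given in the sources used here, so counts may include PCR copies. The counting interval given for a ratio of pooled levels covers counting error only. Intervals of log2 fold changes come from the fit and include the spread between samples.

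The counts were fitted in R 4.3.3 with edgeR 4.0.16 (TMM factors, filterByExpr by group, quasi-likelihood test) in 1 model of all samples of the series with a mean for each of 32 groups of strain, treatment and time (867 residual degrees of freedom), so that all groups share the spread. In a further fit the means were also split by sex. The p-values were adjusted after Benjamini and Hochberg within a contrast over 483 tested miRNAs, which hold 99.99% of the reads of the 33 libraries, and called under 0.05. The standard error (SE) is the fold change over the root of F, and 95% intervals take the normal quantile. Each library of month 4 is 1 mouse, and the number of identical pairs among the 33 columns was 0. Simulated counts with planted fold changes served to check the fit. limma 3.58.1 (voom) and DESeq2 1.42.0 gave alternatives, as did other filters, scalings and covariates, with each mouse left out in turn; those without 3 sham libraries or the deepest libraries, and the mean of both sexes' effects, were chosen after seeing the data. The labels give samples of a mouse at several times, which pairs month 4 with earlier samples. Deviations of same-mouse samples from their group means over 125 miRNAs of at least 100 CPM correlated by 0.00882 (month 4 with before irradiation) and 0.0839 (with month 3) on average, and the correlation estimated for the mouse block was 0.0344.

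Named were called miRNAs, the 6 with the smallest p in each direction, members of the lists, up to 6 called ones in each further contrast and the 8 most abundant. Samples, lists and tests were chosen with earlier results of these data known.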

Additional observations from a re-analysis of the deposited data

Results flagged for a closer look

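Of 64 groups of 4 to 10 mice that were examined, each a named measure in 1 sex and treatment, 9 had a mouse far from the others. The rule is built to mark about 1 in 20 groups of normally spread values by chance, a rate that was not measured here and does not apply where most mice tie at 0 reads, as for miR-6946-3p. Irradiated female 2046, whose library was the shallowest, was the lowest of its 8 mice for miR-34c-3p (2.955 log2 CPM), miR-99a-5p (0.233) and miR-100-5p (0.233, or no read) and the highest for miR-208a-3p (2.403). Sham male 2003 was the highest of its group for miR-107-3p (5.352 log2 CPM) and the lowest for the share of miR-16-5p (19.33%). Irradiated male 2006 was the highest for miR-7687-3p (1.763 log2 CPM), irradiated male 2019 for miR-6946-3p (1.742), and sham female 2027 for miR-6946-3p (0.5679). The part of depth in these values was not tested.

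Effects that differed between groups by their own test in edgeR were those of miR-202-5p (-7.331) and miR-202-3p (-5.122) in females minus males. In C3H minus C57Bl/6 mice they were those of miR-7687-3p (4.003), miR-216b-5p (-5.094), miR-122-5p (-2.129), miR-350-5p (-4.641), miR-216a-5p (-1.98) and miR-192-5p (-1.031). All are differences of log2 fold changes.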

How the results depend on the processing

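The 2 calls at month 4 became 1 with limma-voom, with DESeq2 on C3H months 3 and 4, with C3H samples only, with sex as a covariate and with the mouse as a random block in limma-voom (miR-34c-3p each time), and 0 with quantile-normalized log2 RPM, with the mouse as a fixed block against its sample before irradiation and without the 3 sham libraries under 30% miR-16-5p. There were 41 with no filter on low counts (1403 tested). With each mouse left out in turn the count ran from 0 to 3. In males limma-voom called 2. The sexes differed for 15 miRNAs with no filter and for 1 without the 3 sham libraries or without the deepest library of each group. Month 4 differed from month 1 for 1 miRNA with limma-voom, for 3 with DESeq2's size factors, 3 with the mouse block, 3 without the 3 sham libraries and 29 with no filter, and from month 3 for 46 with no filter. The strains differed for 1 miRNA with limma-voom and 39 with no filter. Without the 3 sham libraries the log2 fold changes of miR-107-3p (0.07339), miR-200c-3p (0.1748), miR-96-5p (0.157), miR-182-5p (0.156) and let-7g-5p (0.001699) turned positive. Of the other values of single miRNAs, 909 kept direction and side of the threshold, 37 lost the call and 5 gained it. The mouse block was run for month 4 over both sexes and, with the random block, for its differences from months 1 and 3, where it changed no other call; the calls by sex and between strains were not run with it. The causes were not tested. The low miRNAs rested on few mice: miR-208a-3p and miR-7687-3p had reads in 7 and 4 of 17 irradiated mice.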
